A study of Homo sapiens with 4 samples.

Results

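The 54 genes described here encode the proteins that license replication origins and that build, drive and protect the replication fork in human cells. They were chosen by name, as subunits of the origin recognition complex, the MCM helicase, GINS, the replicative polymerases, the clamp and its loaders, RPA, the fork protection factors and the CAF-1 chromatin assembly factor. The choice was made with earlier results of these data known, so counts over the list describe it and are no independent finding. All 54 were found among the 60725 genes of the deposited count table, and all 54 passed the filter of at least 10 counts in at least 2 libraries, which left 15356 genes for testing.

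Replication is prepared in G1, when the origin recognition complex (ORC), CDC6 and CDT1 load the ring of MCM2 to MCM7 onto DNA, a step that geminin (GMNN) blocks later in the cycle. At the onset of S phase the DBF4-dependent kinase CDC7 and the cyclin-dependent kinases recruit CDC45 and the GINS complex, which turn the loaded ring into the moving helicase. Polymerase alpha-primase then starts each strand, polymerases delta and epsilon extend it on the PCNA clamp, and LIG1 and its partners join the lagging-strand fragments. Many genes of this machinery are transcribed at the G1/S boundary, and E2F factors are the best known regulators of that wave.

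The series holds 4 RNA-seq libraries of RPE1 SunTag cells, an hTERT-immortalized retinal pigment epithelial line that also expresses the SunTag system. The 2 control libraries came from cells given a non-targeting siRNA (the Silencer Select Negative Control No. 2). The other 2, the TOP2B knockdown libraries, came from cells given a pool of siRNAs against TOP2B (Dharmacon ON-TARGETplus SMARTpool). Both groups received 10 nM siRNA with Lipofectamine RNAiMAX, were transfected again after 48 h and were harvested 72 h later, at day 5. TOP2B is a type II topoisomerase, and the study asked how its loss alters contacts of the genome with the nuclear lamina. The RNA-seq libraries show which transcripts differ between the siRNA treatments. Each group had a single siRNA reagent, so loss of TOP2B and other effects of either reagent cannot be told apart here.

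The libraries held 20310259 to 23887013 counts in genes, so that a level of 1 CPM (counts scaled to the library total after TMM normalization) stood for 20.2 to 23.9 reads. TOP2B itself had 154.9 and 143.5 CPM in the control libraries and 15.3 and 13.3 CPM in the knockdown libraries, which left 9.58% of its transcripts (log2 fold change −3.38, SE 0.14). Of 9 listed markers of pigment epithelium, the line transcribed MITF at 38.2 to 44.8 CPM and OTX2 at 11.2 to 13.4 CPM. BEST1 was at 0.614 to 0.992 CPM and PMEL at 0.307 to 1.46 CPM. RLBP1 had 0 to 1 counts and LRAT 0 to 5 counts per library, and RPE65, TYR and DCT were at 0 in all 4 libraries. Of 5 markers of leukocytes, endothelium, other epithelia and muscle, 1 passed the filter, and their summed level was 0.347 to 1.27 CPM. These are bulk libraries, in which fewer cells of a kind and less RNA per cell cannot be told apart; the libraries hold no measure of the share of cells in S phase, and the study's own cell cycle measurements were not analysed here.

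After TOP2B knockdown, 31 of the 54 replication genes rose and none fell (edgeR quasi-likelihood test, adjusted p below 0.05 over all genes tested). Of all genes tested, 6.66% were called higher and 4.18% lower, against 57.4% of the replication genes called higher. At an unadjusted p below 0.05, 44 members were higher and 0 lower, and 4040 of the 15356 genes tested passed in either direction. The Wald test of DESeq2 called 32 members higher and 0 lower. Of the 13275 genes to which it gave an adjusted p, it called 6.91% higher and 4.86% lower. The median log2 fold change of the members was 0.58, with quartiles of 0.29 and 0.71, beside −0.003 over all genes tested. Altogether 52 members had a fold above 1, as did 7640 of the 15356 genes tested. Of the members, 28 lay above a log2 fold change of 0.57, the 90th percentile of all genes. The rises were moderate in size, 1.41- to 2.57-fold, and 3 members exceeded 2-fold: POLD1, LIG1 and CDC45.

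The separation of the groups could be seen in the single libraries. In 46 of the 54 genes both knockdown libraries stood above both control libraries, an order found in 27.7% of all genes tested. The opposite order held for 1 member, ORC4, against 26.6% of all genes. The median log2 ratio of replicate 2 to replicate 1 over the members was 0.080 in the controls and 0.037 after knockdown. These are signed values, in which rises and falls cancel. Single members spread more widely, with an SD of 0.14 in each pair and largest gaps of 0.35 (control) and 0.50 (knockdown). The 4 pairings of a knockdown with a control library gave medians of 0.506 to 0.615, with SDs of 0.32 to 0.34. Summed over all 54 genes, the level was 2910 and 3046 CPM in the control libraries and 4335 and 4441 CPM after knockdown, a ratio of 1.47. The members lie on 20 chromosomes. Genes with control levels inside the members' own range numbered 10567, and 8.01% of them were called higher, with a median of −0.015.

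**Figure D1:**
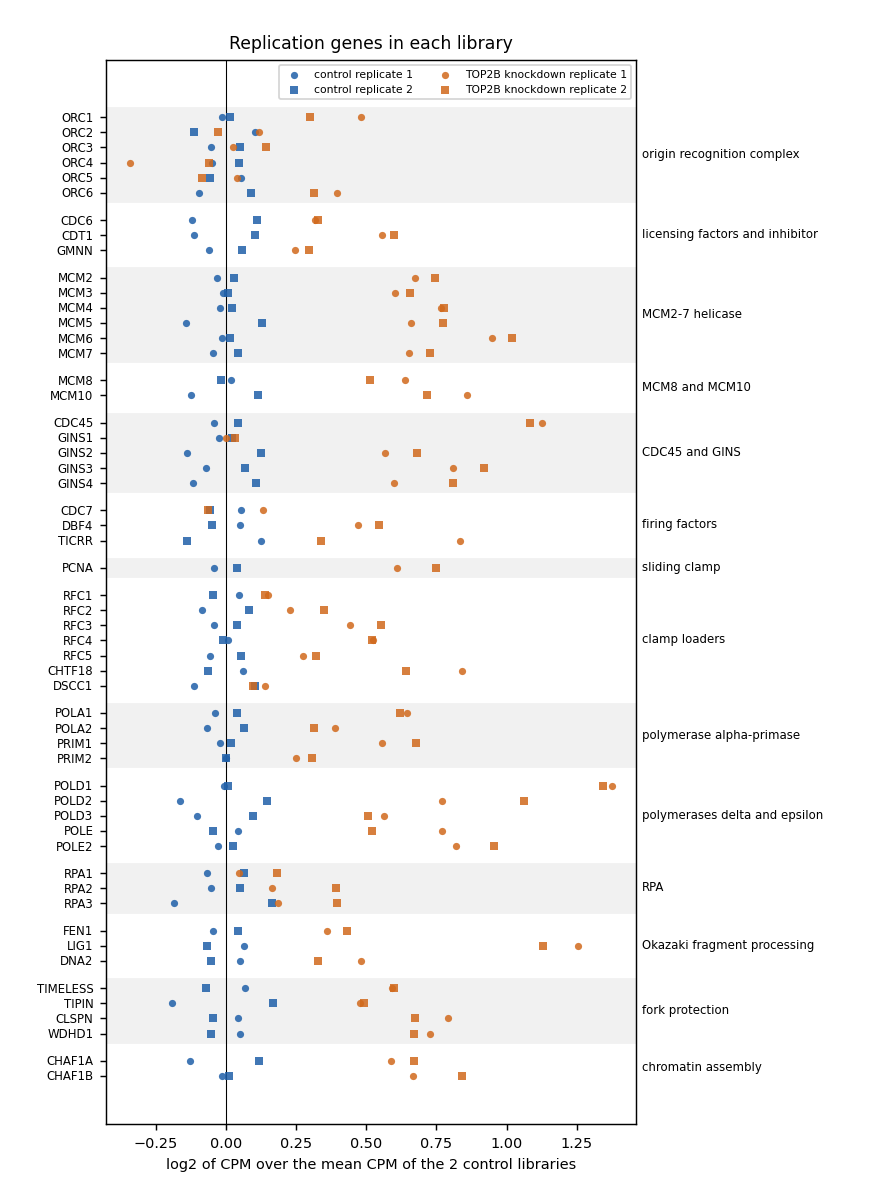
Level of each of the 54 replication genes in each of the 4 libraries, as log2 of its CPM over the mean of the 2 control libraries, with genes grouped by role. Blue points are control and orange points TOP2B knockdown libraries (circles replicate 1, squares replicate 2); the orange points lie right of both blue points in 46 genes and left of both in 1, ORC4.

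Leaving out 1 library at a time lost some of the 31 calls, and the genes are named with their groups below. The median log2 fold change of the 54 members was 0.52 without control replicate 1 and 0.58 without control replicate 2. It was 0.54 without knockdown replicate 1 and 0.55 without knockdown replicate 2. The fold changes of the 31 called members stayed between 0.43 and 1.37 (log2) in these fits. The libraries are described by the study as 2 independent biological replicates per condition.

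The MCM2 to MCM7 ring, the core of the replicative helicase, rose in all 6 of its subunits, by 0.63 to 0.98 on the log2 scale (median 0.71). Promoters of 3 of them are shown because the ring rose as a whole and because they carry the exact E2F-type words looked for here (TTTGGCGC, TTTCGCGC, TTTCCCGC or TTTGCCGC on either strand). The promoter of MCM7 also held 2 of them, from −187 and from −9, and is not printed; those of MCM4 and MCM5 were not analysed here. The letters run from 200 bases before to 30 bases after the RefSeq start (GRCh38.p14), 5′ to 3′ on the gene's strand, and capitals mark the matches. MCM2 (chr3:127598211-127598440, plus strand), MCM3 (chr6:52284713-52284942, minus strand) and MCM6 (chr2:135876414-135876643, minus strand) read as follows.
MCM2: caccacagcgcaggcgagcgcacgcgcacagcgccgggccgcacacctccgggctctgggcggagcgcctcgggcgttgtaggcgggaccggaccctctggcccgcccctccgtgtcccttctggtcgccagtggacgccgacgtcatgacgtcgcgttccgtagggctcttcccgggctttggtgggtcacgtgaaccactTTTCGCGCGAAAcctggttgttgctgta
MCM3: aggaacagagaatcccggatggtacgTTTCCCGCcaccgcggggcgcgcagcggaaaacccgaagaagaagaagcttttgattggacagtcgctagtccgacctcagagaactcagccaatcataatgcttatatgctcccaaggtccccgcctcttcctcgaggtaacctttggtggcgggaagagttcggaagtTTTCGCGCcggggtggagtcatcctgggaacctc
MCM6: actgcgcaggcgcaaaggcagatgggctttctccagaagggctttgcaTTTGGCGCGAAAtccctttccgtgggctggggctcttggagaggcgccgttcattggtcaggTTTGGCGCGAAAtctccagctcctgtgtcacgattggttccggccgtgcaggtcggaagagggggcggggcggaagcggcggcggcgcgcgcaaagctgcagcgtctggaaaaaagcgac

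In MCM2 the capitals span positions 3 to 14 counted from the start as 1, where a word on one strand overlaps its own reverse complement. MCM3 held a word at −174 and another across the start at −4, and MCM6 held 2 places, from −152 and from −90, each with overlapping words on both strands. A match of letters is a description and does not show that a factor binds there.

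MCM6, which with MCM4 and MCM7 forms the catalytic core of the ring, had the largest change of the ring, from 38.2 and 39.0 CPM in the control libraries to 74.5 and 78.3 CPM after knockdown (log2 fold change 0.98, SE 0.12, adjusted p = 0.0013). MCM2 went from 107 and 111 CPM to 174 and 183 CPM (0.71, SE 0.12, adjusted p = 0.0061). MCM3 was at 126 and 128 CPM in the controls and 193 and 200.04 CPM after knockdown (0.63, SE 0.12, adjusted p = 0.011). In these 3 genes the 2 libraries of a group lay close together and the groups were far apart. MCM4, another core subunit, rose from 164 and 169 CPM to 283 and 285 CPM (0.77, SE 0.12, adjusted p = 0.0050). MCM5, which closes the ring against MCM2 at its gate, moved from 54.03 and 65.1 to 94.2 and 102 CPM (0.72, SE 0.13, adjusted p = 0.0086). MCM7, the third core subunit, had 265 and 282 CPM in the controls and 430.0 and 453 CPM in the knockdown libraries (0.69, SE 0.13, adjusted p = 0.011). None of the 6 overlapped between the groups. The call of MCM7 was lost without control replicate 1 (0.65, adjusted p = 0.069) and without knockdown replicate 2 (0.64, adjusted p = 0.068), and that of MCM3 without knockdown replicate 2 (0.59, adjusted p = 0.051). Summed, the 6 transcripts stood at 753.9 and 793.9 CPM in the control libraries and at 1248 and 1301 CPM after knockdown, a ratio of 1.65.

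Their levels were far from equal although the ring holds 1 copy of each subunit. Per kilobase of the canonical transcript, the control level was lowest for MCM6, at 10.3 CPM per kilobase, and highest for MCM7, at 110.8 CPM per kilobase, a 10.8-fold range. After knockdown the range ran from 20.4 (MCM6) to 178.9 CPM per kilobase (MCM7). MCM6 was also the subunit with the largest fold change of the ring. A link between level and fold change was not tested, and over all 54 genes their Spearman correlation was −0.14 per kilobase.

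MCM8 and MCM10, which are not part of the ring, also rose. MCM8, which works in recombination at damaged forks, had 53.6 and 52.3 CPM in the controls and 82.4 and 75.5 CPM after knockdown (0.58, SE 0.12, adjusted p = 0.014). MCM10, which helps to activate the helicase at origins, went from 15.7 and 18.5 to 31.0 and 28.1 CPM (0.79, SE 0.14, adjusted p = 0.0078). For both genes the groups stood apart. MCM8 was no longer called without control replicate 2 (0.56, adjusted p = 0.055) or without knockdown replicate 1 (0.52, adjusted p = 0.068).

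The origin recognition complex marks origins and, with CDC6 and CDT1, loads the ring. None of its 6 subunits was called (edgeR; 0 also with DESeq2), 2 had an unadjusted p below 0.05, and their median log2 fold change was 0.07. ORC1, the subunit whose level cycles, had 20.5 and 20.8 CPM in the controls and 28.8 and 25.4 CPM after knockdown (0.39, SE 0.13, adjusted p = 0.089). ORC6 was similar, with a log2 fold change of 0.35 (SE 0.12, adjusted p = 0.098). In these 2 the knockdown libraries lay above both controls, although the test was not passed. ORC2, ORC3 and ORC5 had log2 fold changes of 0.05, 0.09 and −0.02, with overlapping groups. ORC4, an ATP-binding subunit, had the lowest value of all 54 genes, with 32.1 and 34.3 CPM in the controls and 26.2 and 31.9 CPM after knockdown (−0.19, 95% interval −0.50 to 0.11, adjusted p = 0.412). The 95% intervals of ORC2 to ORC5 ended between 0.11 (ORC4) and 0.36 (ORC3), and those of ORC1 and ORC6 at 0.69 and 0.63. The smallest fitted rise of the MCM ring was 0.63 (MCM3), with an interval that began at 0.36. The difference between the complexes was not tested.

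Of the 2 licensing factors and their inhibitor, 1 was called. CDT1, which brings the MCM ring to origins and is destroyed in S phase, rose from 30.1 and 35.0 CPM to 47.9 and 49.3 CPM (0.58, SE 0.13, adjusted p = 0.019). The call of CDT1 was lost without control replicate 1, the lower of the controls (0.47, adjusted p = 0.114). CDC6, the ATPase that acts beside CDT1, had 60.9 and 71.5 CPM in the controls and 82.5 and 83.2 CPM after knockdown (0.32, SE 0.12, adjusted p = 0.129). GMNN, the inhibitor of CDT1, had 31.6 and 34.3 CPM and 39.0 and 40.5 CPM (0.27, SE 0.12, adjusted p = 0.186). In all 3 genes both knockdown libraries were above both controls, and CDC6 and GMNN did not pass the test.

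CDC45 and GINS, the partners that activate the ring, rose in 4 of 5 genes. CDC45 had one of the largest changes of the list, with 11.6 and 12.4 CPM in the controls and 26.2 and 25.4 CPM after knockdown, 2.15-fold (1.11, SE 0.14, adjusted p = 0.0016). Among the GINS subunits, GINS2 went from 26.5 and 31.8 to 43.1 and 46.7 CPM (0.63, SE 0.13, adjusted p = 0.017). GINS3 went from 10.4 and 11.4 to 19.1 and 20.6 CPM (0.87, SE 0.15, adjusted p = 0.0061). GINS4 went from 26.6 and 31.1 to 43.7 and 50.6 CPM (0.71, SE 0.14, adjusted p = 0.011). The 4 GINS proteins form a tetramer with 1 copy of each, though only transcripts were measured in these libraries. The transcript of GINS1 was not called, at 53.3 and 55.1 CPM in the controls and 54.1 and 55.4 CPM after knockdown (0.02, 95% interval −0.24 to 0.27, adjusted p = 0.950). The intervals of its partners began at 0.33 (GINS2), 0.54 (GINS3) and 0.41 (GINS4), all above the upper end for GINS1. The call of GINS2 was lost without control replicate 1 (0.50, adjusted p = 0.087). Counts of GINS3 and GINS4 are less certain, since 10.9% and 23.4% of their exon bases overlap other genes, mainly a noncoding gene on the opposite strand, and the sources conflict on strand (the deposited columns carry a stranded, paired-end tag, whereas the methods give single-end reads).

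GINS1 had the highest control level of these 5 genes, 16.4 CPM per kilobase of transcript, and GINS3 the lowest, 4.95 CPM per kilobase. After knockdown the highest was GINS2, at 17.1 CPM per kilobase (16.4 and 17.8 in its libraries), beside 16.3 and 16.7 for GINS1. The lowest was again GINS3, at 9.01 CPM per kilobase. The promoter of GINS1 is shown because it holds an E2F-type word, at positions 6 to 13, in a gene with a log2 fold change near 0 (GRCh38.p14, chr20:25407473-25407702, plus strand, drawn and marked like those above).
GINS1: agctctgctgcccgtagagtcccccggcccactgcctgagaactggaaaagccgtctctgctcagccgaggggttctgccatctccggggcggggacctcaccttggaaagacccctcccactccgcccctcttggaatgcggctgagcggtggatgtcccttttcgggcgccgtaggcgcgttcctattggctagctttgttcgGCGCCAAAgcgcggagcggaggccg

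**Figure D2:**
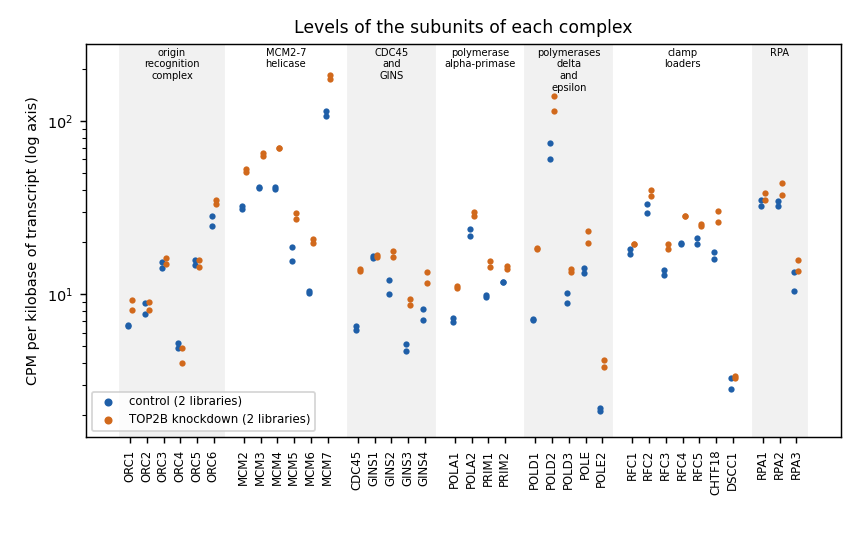
Control and TOP2B knockdown levels of the subunits of 7 complexes, in CPM per kilobase of the canonical transcript on a log axis, 1 point per library. All 6 MCM subunits lie higher after knockdown over a 10.8-fold range of control levels, while the points of GINS1 and of ORC2, ORC3 and ORC5 coincide or overlap.

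Of the 3 firing factors, the regulatory subunit of the CDC7 kinase, DBF4, rose from 34.2 and 31.9 CPM to 45.8 and 48.2 CPM (0.51, SE 0.12, adjusted p = 0.025). Its catalytic partner CDC7 had overlapping groups and a log2 fold change of 0.04 (95% interval −0.27 to 0.35). TICRR, also named treslin, which bridges the kinases to CDC45 loading, had 26.8 and 22.4 CPM in the controls and 43.9 and 31.1 CPM after knockdown (0.61, SE 0.17, adjusted p = 0.054). Its knockdown libraries differed by 0.50 on the log2 scale, the widest gap within a group in the list. TICRR passed the test in 5 of 10 alternative settings, among them DESeq2 (adjusted p = 0.033) and the edgeR fit without the filter (adjusted p = 0.0019). With 1 library left out, its log2 fold change ran from 0.34 to 0.82. The call of DBF4 was lost without control replicate 2 (0.46, adjusted p = 0.144) and without knockdown replicate 2 (0.46, adjusted p = 0.121).

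PCNA, the sliding clamp that ties the polymerases to DNA, rose from 167 and 177 CPM to 262 and 288 CPM (0.68, SE 0.13, adjusted p = 0.010). Without knockdown replicate 2 it did not pass the test (0.59, adjusted p = 0.064). Of the genes that load the clamp, 3 of 7 were called, with a median log2 fold change of 0.30. CHTF18, the large subunit of an alternative loader that acts in cohesion, rose the most, from 54.2 and 49.7 to 93.0 and 81.0 CPM (0.74, SE 0.13, adjusted p = 0.0061). RFC3 and RFC4, small subunits shared by the loaders, had smaller rises. RFC3 went from 29.9 and 31.7 to 41.9 and 45.2 CPM (0.50, SE 0.12, adjusted p = 0.028), and RFC4 from 27.02 and 26.7 to 38.6 and 38.5 CPM (0.52, SE 0.12, adjusted p = 0.022). RFC1, RFC2, RFC5 and DSCC1 had log2 fold changes of 0.14, 0.29, 0.30 and 0.12 and were not called, and 10.6% of the exon bases of RFC5 overlap other genes. The call of RFC4 was lost when any 1 of the 4 libraries was left out (0.51 to 0.53, adjusted p = 0.065 without control replicate 1, 0.091 without control replicate 2, 0.071 without knockdown replicate 1 and 0.077 without knockdown replicate 2). For RFC3 it was lost without control replicate 1 (0.46, adjusted p = 0.127), control replicate 2 (0.54, adjusted p = 0.067) and knockdown replicate 2 (0.43, adjusted p = 0.160).

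Polymerases delta and epsilon, which copy the bulk of the genome, rose in all 5 listed subunits, with the highest median of the groups of at least 3 genes, 0.89. POLD1, the catalytic subunit of polymerase delta, had the largest change of the whole list, from 24.4 and 24.7 CPM in the controls to 63.7 and 62.3 CPM after knockdown, 2.57-fold (1.36, SE 0.12, adjusted p = 0.00048). POLD2, its second subunit, went from 96.6 and 119.9 to 185 and 226 CPM (0.92, SE 0.15, adjusted p = 0.0056). POLD3, the subunit that binds PCNA, went from 33.5 and 38.5 to 53.2 and 51.1 CPM (0.53, SE 0.12, adjusted p = 0.024). POLE, the catalytic subunit of polymerase epsilon, had 110.3 and 104 CPM and 182 and 154 CPM (0.65, SE 0.13, adjusted p = 0.013). POLE2, which holds the epsilon complex together and had the lowest control level of the 54 genes per length (2.16 CPM per kilobase), was at 3.59 and 3.73 CPM in the controls and 6.46 and 7.09 CPM after knockdown, or 85 to 143 counts per library (0.89, SE 0.19, adjusted p = 0.019). The 2 libraries of a group agreed closely in POLD1 and were spread in POLD2 and POLE, but the groups did not overlap in any of the 5. Calls were lost for POLD3 without control replicate 1 (0.44, adjusted p = 0.150) or knockdown replicate 1 (0.51, adjusted p = 0.077), for POLE without control replicate 2 (0.61, adjusted p = 0.053) or knockdown replicate 1 (0.53, adjusted p = 0.083), and for POLE2 without knockdown replicate 2 (0.81, adjusted p = 0.067).

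The promoter of POLD1, the gene with the largest rise, and that of LIG1, the next largest, are shown for contrast (GRCh38.p14, RefSeq, drawn and marked like the others). POLD1 (chr19:50384123-50384352, plus strand) held none of the E2F-type words, and LIG1 (chr19:48170315-48170544, minus strand) held 1, at −114.
POLD1: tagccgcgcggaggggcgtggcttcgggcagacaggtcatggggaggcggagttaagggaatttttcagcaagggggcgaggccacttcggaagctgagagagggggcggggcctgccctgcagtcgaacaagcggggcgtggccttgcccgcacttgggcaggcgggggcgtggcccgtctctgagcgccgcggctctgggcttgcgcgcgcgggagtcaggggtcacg
LIG1: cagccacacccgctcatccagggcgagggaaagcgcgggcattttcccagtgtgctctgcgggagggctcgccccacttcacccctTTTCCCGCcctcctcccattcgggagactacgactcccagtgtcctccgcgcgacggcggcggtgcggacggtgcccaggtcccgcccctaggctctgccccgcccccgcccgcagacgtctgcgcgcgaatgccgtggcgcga

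LIG1, the ligase that seals Okazaki fragments, rose from 29.7 and 27.2 CPM to 67.8 and 62.1 CPM, 2.28-fold (1.19, SE 0.12, adjusted p = 0.00072). The nucleases that prepare the same fragments were not called. FEN1, the flap nuclease, had a log2 fold change of 0.40 (SE 0.12, adjusted p = 0.066) and DNA2, which cuts long flaps, one of 0.41 (SE 0.13, adjusted p = 0.075), with both knockdown libraries above both controls in each gene.

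In polymerase alpha-primase, which lays down the RNA-DNA primer, the 2 catalytic subunits rose and their 2 partners were not called. POLA1, the polymerase, went from 37.9 and 40.0 to 61.0 and 59.9 CPM (0.63, SE 0.12, adjusted p = 0.0086). PRIM1, the primase, went from 13.7 and 14.0 to 20.4 and 22.1 CPM (0.62, SE 0.14, adjusted p = 0.021). POLA2 had a log2 fold change of 0.35 and PRIM2 one of 0.28, with groups that did not overlap. The call of PRIM1 was lost without control replicate 1 (0.60, adjusted p = 0.057) and without knockdown replicate 2 (0.54, adjusted p = 0.097). RPA, the trimer that coats single-stranded DNA, had none of its 3 genes called by edgeR or DESeq2 and 1 with an unadjusted p below 0.05. The log2 fold changes were 0.12 for RPA1, 0.28 for RPA2 and 0.29 for RPA3.

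Of the 4 fork protection genes 3 rose. CLSPN, the checkpoint adaptor claspin, went from 32.2 and 30.3 to 54.1 and 49.9 CPM (0.73, SE 0.12, adjusted p = 0.0053). WDHD1, the human AND-1, which links polymerase alpha to the helicase, went from 38.4 and 35.7 to 61.2 and 58.9 CPM (0.70, SE 0.12, adjusted p = 0.0061). TIMELESS, which keeps the helicase and the polymerases together, went from 112 and 102 to 161 and 162 CPM (0.59, SE 0.12, adjusted p = 0.014). TIMELESS was not called without control replicate 2 (0.53, adjusted p = 0.11). Its obligate partner TIPIN had a similar log2 fold change with a wider error (0.49, SE 0.18, adjusted p = 0.121) at 145 to 204 counts per library, and 21.1% of its exon bases overlap a ribosomal protein pseudogene. The CAF-1 subunits, which deposit histones behind the fork, both rose. CHAF1A went from 49.4 and 58.5 to 81.2 and 85.8 CPM (0.63, SE 0.13, adjusted p = 0.013), and CHAF1B from 22.5 and 22.9 to 36.1 and 40.7 CPM (0.76, SE 0.13, adjusted p = 0.0059). The call of CHAF1A was lost without control replicate 1 (0.51, adjusted p = 0.078).

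**Figure D3:**
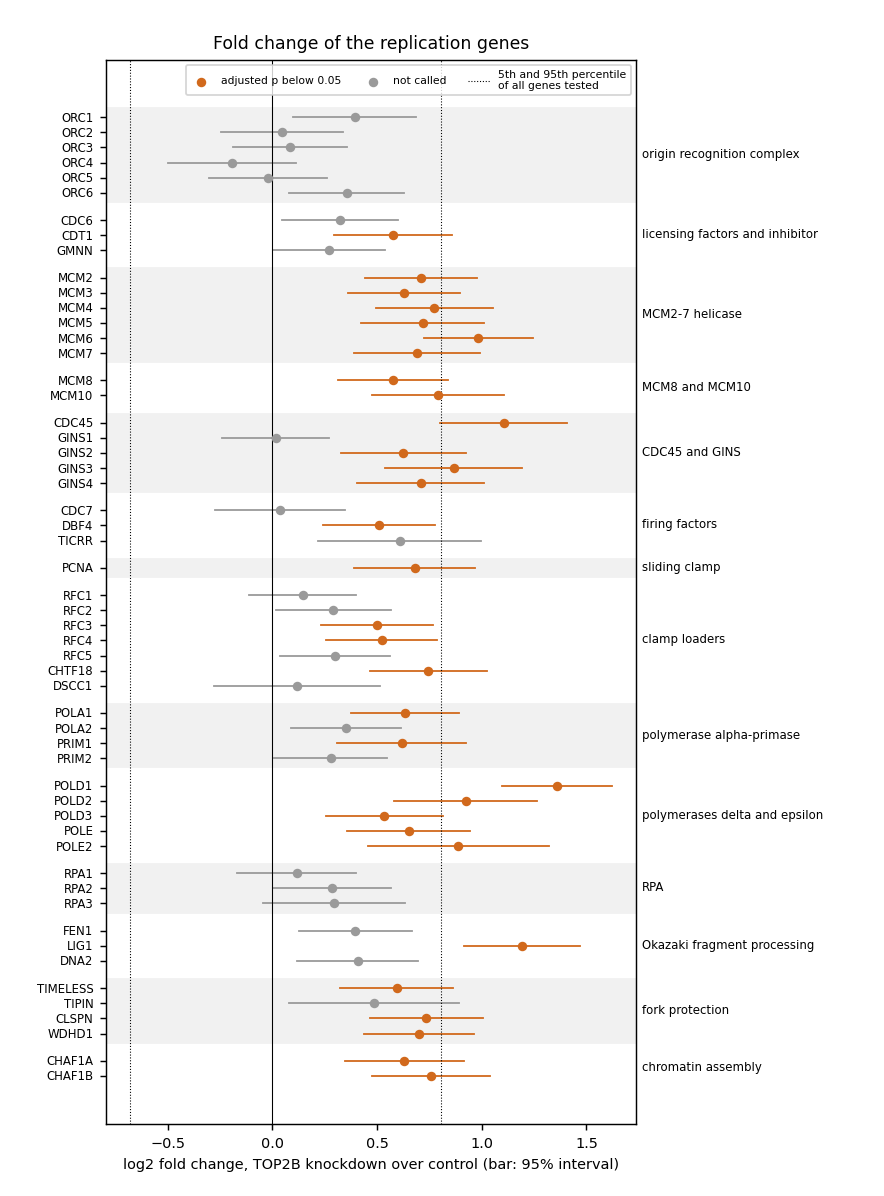
Fitted log2 fold change of each replication gene, TOP2B knockdown over control, with its 95% interval (edgeR; 2 libraries per group), orange where the adjusted p is below 0.05 and grey where it is not. The 31 called genes lie between 0.50 and 1.36, the ORC and RPA groups hold no called gene, and the dotted lines mark the 5th and 95th percentiles of all genes tested.

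The 23 members that were not called had log2 fold changes of −0.19 to 0.61 and adjusted p-values of 0.0535 to 0.950. Their summed level had a ratio of 1.18 between knockdown and control, against 1.64 for the 31 called genes. Their median control level, 35.5 CPM, was close to the 36.0 CPM of the called genes, and over all 54 genes the fold change had a Spearman correlation of −0.05 with the control level and 0.10 with transcript length. With the GC content of the transcript the correlation was 0.48 over the 54 genes and 0.03 over the 15183 tested genes found in the annotation. The median GC content was 47.7% in the called members and 43.6% in the others. These correlations run across genes that share libraries and base composition, and no p is given for them.

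A RefSeq promoter could be matched to 46 of the 54 genes. Within the 300 bases from 250 before to 50 after the start, at least 1 of the E2F-type words occurred in 19 of the 46 (41.3%), against 5.41% of the 11037 tested genes with a promoter and 4.15% of all 19139 promoters. It was present in 14 of 27 called members and in 5 of 19 members not called. The genes with a word had a median log2 fold change of 0.63 and those without it 0.51, and 14 of the 19 members with a word and 13 of the 27 without it were called. Over all tested genes the shares called higher were 13.1% with a word and 6.78% without. When every RefSeq start of a gene was searched, 22 of the 46 members and 6.56% of tested genes held a word. The CCAAT word, the NF-Y box, was present in 56.5% of the members and in 36.5% of tested genes. The CHR word TTTGAA, known from promoters of late cell cycle genes, was present in 1 of the 46 (DBF4) and in 9.16% of tested genes. The words were searched on both strands, and overlapping matches within a promoter counted as 1.

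The mitotic genes of the comparison list held the E2F-type words in 2 of 24 promoters and TTTGAA in 18 of 24. A 6-base word known from earlier work on these libraries, GCAACC in the 3′ UTR, was present in 12 of the 54 replication genes (22.2%) and in 23.4% of the 12517 genes with an annotated 3′ UTR. Members with it had a median log2 fold change of 0.69 and members without it 0.52, and 9 of the 12 with it and 22 of the 42 without it were called. Over all tested genes the shares called higher were 12.6% with the word and 5.99% without it, with medians of 0.06 and −0.04. Since the word was known from these libraries, these shares are no independent observation, and 3′ UTR length was not taken into account.

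Several members lie head to head with another gene. Within 1000 bases of the canonical start, 15 members had such a protein-coding neighbour that could be tested, 9 of them beside a called member. The neighbours had a median log2 fold change of 0.06, none was called higher (0 also with DESeq2, 2 with an unadjusted p below 0.05), and 1 was called lower. With 15 genes, the shares over all genes tested (6.66% higher and 4.18% lower) would give about as few calls, so the count is not particular to these neighbours. LIG1 was at 1.19 and ZSWIM9, whose start lies 336 bases away, at −0.38 (SE 0.13, adjusted p = 0.087). CDC45 was at 1.11 and UFD1, 727 bases away, at −0.12 (SE 0.12). WDHD1 was at 0.70 and SOCS4, 137 bases away, at 0.01 (SE 0.12). The neighbour that fell was RPUSD1, 239 bases from CHTF18, with 79.4 and 96.2 CPM in the controls and 56.4 and 61.1 CPM after knockdown (−0.58, SE 0.13, adjusted p = 0.023), beside 0.74 for CHTF18. Its call was lost without control replicate 2 (−0.43, adjusted p = 0.158) and without knockdown replicate 1 (−0.52, adjusted p = 0.089). In MCM4 and PRKDC, which codes for the DNA-dependent protein kinase, the values were 0.77 and 0.21 (SE 0.17, adjusted p = 0.488). The pair of POLE and PXMP2 had like values, 0.65 and 0.67, but PXMP2 was at only 0.96 to 2.18 CPM (SE 0.33). The difference within each pair was not tested.

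**Figure D4:**
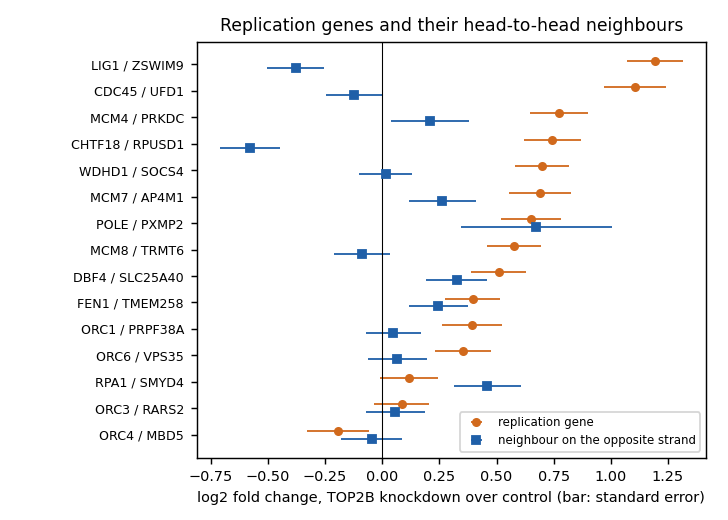
Log2 fold change after TOP2B knockdown of the 15 replication genes with a protein-coding neighbour starting within 1000 bases on the opposite strand (circles) and of that neighbour (squares); bars are standard errors from the edgeR fit. The neighbours scatter around a median of 0.06, from −0.58 (RPUSD1) to 0.67 (PXMP2).

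Other genes of replication, 43 in all, were listed from general knowledge, and 42 could be tested, since ATRIP had 0 and 2 counts in the control libraries and 2 and 5 after knockdown. This list, like the other compared lists, was drawn up with earlier results of these data known and is no independent replication. Of these, 16 rose and 1 fell, with a median log2 fold change of 0.41. Some of these 17 calls were lost whichever library was left out, and the genes are named below with their log2 fold changes. TONSL, a reader of new histones, had the largest rise and went from 25.9 and 23.4 CPM to 58.9 and 53.8 CPM (1.19, SE 0.13, adjusted p = 0.00075). DNMT1, which copies DNA methylation, went from 145 and 153 CPM to 329 and 319 CPM (1.12, SE 0.13, adjusted p = 0.0012). UHRF1, which recruits DNMT1 to new DNA, was at 60.9 and 58.7 CPM in the controls and 109 and 101.4 CPM after knockdown (0.82, SE 0.12, adjusted p = 0.0029).

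Of 3 cyclin partners of CDK2 on the list, CCNE1 (0.58, adjusted p = 0.099) and CCNA2 (0.32, adjusted p = 0.113) were not called and CCNE2 was. CCNE2, a cyclin of the G1/S step, went from 7.72 and 6.799 CPM to 16.3 and 15.1 CPM (1.11, SE 0.16, adjusted p = 0.0029). CDK2, its kinase, rose by 0.60 and CDC25A, the phosphatase that activates it, by 0.56. Further rises were seen in RECQL4 (0.75) and DONSON (0.53), which act in origin firing, in MCMBP (0.47), which chaperones MCM proteins, and in DTL (0.66), which directs CDT1 to degradation. The RNase H2 subunits RNASEH2A (0.63) and RNASEH2C (0.77), the nuclease EXO1 (0.69), the TONSL partner MMS22L (0.46), the histone chaperone ASF1B (0.53) and the histone mRNA binder SLBP (0.59) complete the list. Counts of CCNE2 (37.1%), RNASEH2C (28.9%), DONSON (16.9%) and CDK2 (16.8%) are less certain, since these shares of their exon bases overlap other genes. ASF1A, the paralog of ASF1B, was the 1 gene that fell, from 25.1 and 28.6 CPM to 16.4 and 18.7 CPM (−0.61, SE 0.14, adjusted p = 0.023). Calls were lost without control replicate 1 for RNASEH2A (0.53), CDK2 (0.52), SLBP (0.54), CDC25A (0.48), DONSON (0.48), MMS22L (0.46), MCMBP (0.43) and ASF1B (0.40), and without control replicate 2 for ASF1A (−0.52), DONSON (0.58), MCMBP (0.51) and MMS22L (0.47). Without knockdown replicate 1 they were lost for ASF1A (−0.52), CDC25A (0.48), DONSON (0.50), MCMBP (0.50) and MMS22L (0.39), and without knockdown replicate 2 for ASF1B (0.47), CDK2 (0.53), DONSON (0.55), MCMBP (0.43), MMS22L (0.52) and SLBP (0.45).

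Genes that supply deoxynucleotides were called higher in 6 of 15 cases, against 6.66% of all genes tested, with a median log2 fold change of 0.36. Among the called ones, counts of TYMS (47.9%) and DUT (14.5%) are less certain, since these shares of their exon bases overlap other genes. Of 30 mitotic genes, 5 were called higher, with a median over the list of 0.24, and their summed level had a ratio of 1.16, against 1.47 for the replication genes. Both knockdown libraries stood above both controls in 24 of the 30 mitotic genes, 27 of the 42 other replication genes and 9 of the 15 deoxynucleotide genes. The opposite order held for 0, 5 and 1 of them. Over all genes tested these orders were found in 27.7% and 26.6%. The 5 mitotic genes called, named here after their values were seen, were TTK, CDK1, KIF11, KIF20A and ESPL1. The call of CDK1 was lost when any 1 library was left out (0.36 to 0.46). For KIF20A it was lost without control replicate 2 (0.39), knockdown replicate 1 (0.52) and knockdown replicate 2 (0.45). For ESPL1 it was lost without control replicate 2 (0.37) and knockdown replicate 1 (0.38). The number called among the mitotic genes was 4 without control replicate 1, 2 without control replicate 2, 2 without knockdown replicate 1, 3 without knockdown replicate 2 and 3 with the size factors of DESeq2. Among the deoxynucleotide genes it was 3 higher and 1 lower without control replicate 1, 6 higher without control replicate 2, 5 higher without knockdown replicate 1, and 2 higher and 1 lower without knockdown replicate 2. In the edgeR fit reported here and with DESeq2, neither list had a gene called lower. In the edgeR fit, 1 deoxynucleotide gene and 0 mitotic genes were lower at an unadjusted p below 0.05. The difference between the lists was not tested.

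**Figure D5:**
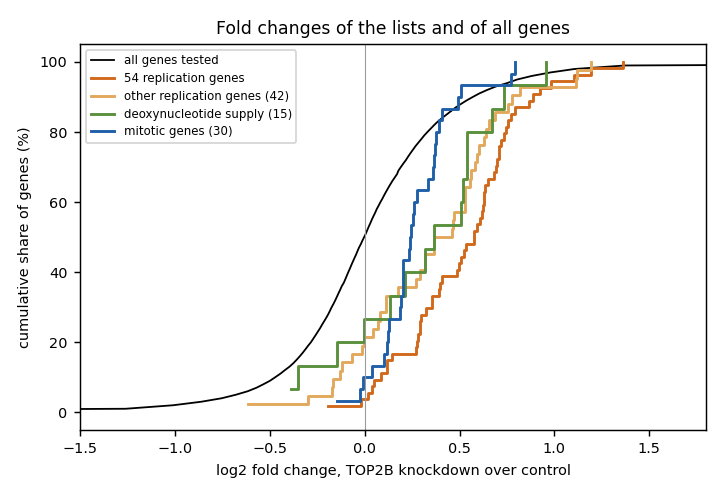
Cumulative share of genes (%) against log2 fold change after TOP2B knockdown, for all 15356 genes tested (black), the 54 replication genes (dark orange), 42 other replication genes, 15 deoxynucleotide supply genes and 30 mitotic genes. The medians are −0.003, 0.58, 0.41, 0.36 and 0.24.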

How the data were processed

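RNA was extracted 5 days after the first transfection, made into libraries with the TruSeq RNA LT kit and sequenced as single-end 65-bp reads. Per the labels and the study's methods, the authors mapped them to GRCh38 by STAR 2.5.4a after a FastQC 0.11.6 check and deposited raw counts per gene of Gencode v24, without normalization. The deposited columns are tagged stranded and paired-end, whereas the labels give single-end reads and the methods an unstranded setting for STAR's signal output; which strand setting the counts used could not be settled. Each column of the deposited count table stood 2 times with identical values, and the 4 further columns were not used.

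Genes that reached 10 counts in 2 or more of the 4 libraries were tested with edgeR 4.0.16 (R 4.3.3): TMM normalization, glmQLFit and glmQLFTest, siRNA as the single factor, p-values adjusted by Benjamini-Hochberg over 15356 genes, called at an adjusted p below 0.05. Adjusted p-values, standard errors and 95% intervals in the text come from that fit unless DESeq2 1.42.0 or a left-out library is named; values after "log2 fold change" are differences, values in CPM are levels. The fit was tested on simulated counts. Positions and canonical transcripts came from GENCODE v44 (98.9% of tested genes matched) and promoters from RefSeq GRCh38.p14. Words in promoters and 3′ UTRs were exact matches.

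The members, the compared lists and the words were chosen with earlier results of these data known. All members were accounted for by role; values in each library were given for the called members, MCM2 to MCM7, ORC1, CDC6, CDT1, GMNN, PCNA and the member with the lowest fold change. The alternatives were other size factors, other filters, DESeq2, a replicate block and leaving out each library.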

Additional observations from a re-analysis of the deposited data

How the results depend on the processing

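The 31 rises of replication genes were all kept with the size factors of DESeq2, without normalization factors, without the filter, with a mean of at least 100 counts, with DESeq2 and with a replicate block. The number called higher was 31 or 32 in the first 5 of these, and the median log2 fold change was 0.52 to 0.58 in the 10 alternatives, the 4 without one library included. With the replicate number as a block, 47 members were called higher and 1 lower (ORC4, −0.20, adjusted p = 0.040), and 29 of the other replication genes were called. Under it the mitotic genes had 22 called higher and 1 lower (5 and 0 without it), and the deoxynucleotide genes 9 and 2 (6 and 0 without it). Under that block 22.4% of all genes tested were called higher and 21.8% lower. The samples share only a number: no label says that it marks a batch or day, and with 2 pairs the correlation of same-numbered deviations from the group means was 0.48.

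Leaving out one library gave 24 to 27 members called higher and 11 to 14 other replication genes called. Members near 0 changed sign in some of these fits: ORC2 (−0.0579 to 0.160), ORC5 (−0.0816 to 0.0346), CDC7 (−0.0592 to 0.117) and GINS1 (−0.0160 to 0.0394, and −0.000447 with DESeq2). None of these was called under any alternative. With 2 libraries per group, a fit without one library rests on 1 residual degree of freedom, and the single sample left in a group is assumed to vary like the other group. The depth gave the members 85 to 9125 counts per library and a median standard error of 0.13 on the log2 scale, and the smallest fitted rise that was called was 0.50.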
